A study of Mus musculus with 46 samples.

Results

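The comparison described here is that of AML12 cells carrying a conventional hairpin against the long noncoding RNA Falcor (labelled shFalcor) with AML12 cells carrying a conventional control hairpin (labelled shCtrl). It was chosen by the column names of 1 count table, which gave 3 shFalcor and 3 shCtrl libraries, 6 of the 46 libraries of the series. AML12 is a line of mouse hepatocytes immortalised with a transforming growth factor alpha transgene, and a conventional hairpin is one that is expressed all the time, so there is no sample of the same cells before the knockdown. The 6 libraries share the line and the library protocol and differ in the hairpin. A further 3 libraries of the same table carried a hairpin against ZC3H11A, a zinc finger protein of mRNA export (labelled shZC3H11A), and were used in the same fit and for a direct contrast. Values of the same genes are also given for AML12 with inducible hairpins (12 libraries, labelled shLinc and shCtrl, with and without doxycycline) and for livers of Falcor knockout and control mice on the diet labelled NCD (4 and 4). The labels give no hairpin sequence and do not say how many hairpins, clones or separate cultures stand behind the 3 libraries of a group. P-values therefore reflect only how much the libraries of a group scatter, possibly for technical reasons, and an effect of the hairpin outside Falcor or a difference between the 2 cell populations cannot be told apart from the loss of Falcor.

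Falcor is transcribed next to Foxa2 in mouse and human liver and other endoderm-derived tissue. FOXA2 is a forkhead protein that binds DNA in closed chromatin and helps to open it at liver genes. In hepatocytes it works in a network with HNF4A, the ONECUT proteins and CEBP proteins, which bind one another's promoters and those of genes for plasma proteins, lipoproteins and enzymes of fat, bile acid and drug metabolism. The series addressed what Falcor does in nuclear speckles, bodies in which splicing factors and the RNA MALAT1 are concentrated, and whether Falcor and ZC3H11A act on the same genes.

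Total counts were 5860427, 4474760 and 8342501 in the shFalcor libraries and 8837581, 5880490 and 6264259 in the shCtrl libraries. After the low-count filter, 11871 of 56775 genes were tested. Pearson's r of log2(CPM + 1) was 0.98 within the groups and 0.93 to 0.94 between them, across genes, and no library stood apart from its group. The shZC3H11A libraries had 4732139 to 7373814 counts. CPM are counts scaled to a common library size, which was adjusted by trimmed mean of M-values (TMM) factors. An error given as SE is the absolute log2 fold change divided by the square root of edgeR's F statistic. It is thus derived from the test and is only approximate for genes with few counts. Mitochondrially encoded RNAs took 6.41 to 7.45% of the counts of the shFalcor libraries and 7.88 to 9.12% of those of the shCtrl libraries, and ribosomal protein mRNAs 2.80 to 3.03% and 3.39 to 3.49%. Their part in the results below was not tested.

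With edgeR's quasi-likelihood test, 6111 genes differed at an adjusted p below 0.05, which is 51.5% of the genes tested. They split into 3024 higher (25.5%) and 3087 lower (26.0%) in shFalcor cells, and these shares are the background for the counts of gene groups below. Differences were often small: the median absolute log2 fold change of all genes was 0.44, and 1803 genes (15.2%) were both called and at least 2-fold apart, 722 higher (6.08%) and 1081 lower (9.11%). Scaling by library totals alone moved the median of all genes to 0.14 on the log2 scale and gave 3946 higher and 2365 lower calls, 62.5% higher against 49.5% with TMM factors. Gene groups are therefore described relative to the median of all genes, which was −0.0049 with TMM factors. Absence of overlap between groups was common. It held for 4083 genes both here and in the inducible lines with doxycycline. The share of all tested genes without overlap here is not given, so non-overlap of a named gene is a description only.

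**Figure D1:**
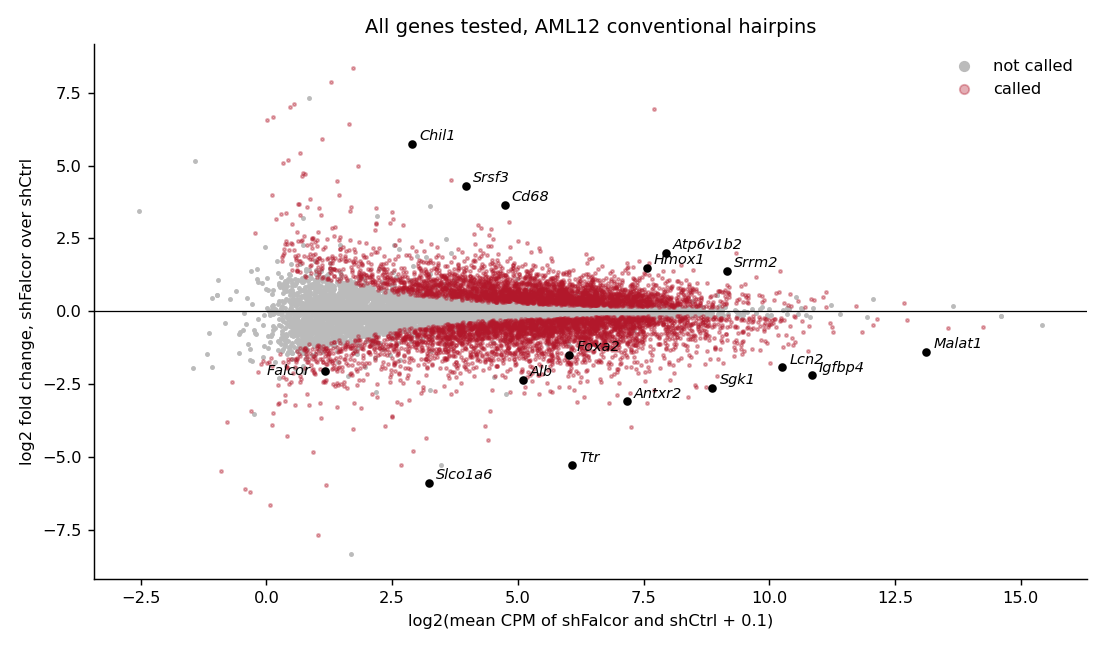
Log2 fold change of shFalcor over shCtrl (y axis) against mean abundance as log2(CPM + 0.1) (x axis) for the 11871 genes tested, 1 point per gene, red where called by edgeR at an adjusted p below 0.05. Calls lay on both sides of 0, and Ttr (−5.29) and Slco1a6 (−5.88) were far below it, Chil1 (5.75) and Cd68 (3.65) far above.

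The table gives Falcor under the symbol 9030622O22Rik. The annotation places this lincRNA gene (ENSMUSG00000086141.7) on chromosome 2, minus strand, from 147944740 to 148040203 (mm10). The table held 7, 4 and 5 Falcor counts in the shFalcor libraries and 38, 11 and 24 in the shCtrl libraries. In a bulk library, fewer cells with a transcript and less of it per cell cannot be told apart. As CPM the Falcor values were 1.14, 0.836 and 0.549 in shFalcor and 4.4, 1.98 and 3.93 in shCtrl, with no overlap (log2 fold change −2.07 ± 0.51 SE, edgeR adjusted p = 0.00242). The knockdown is thus read from few molecules, and the size of the fall is known only to within its error. Foxa2, which ends 2674 bp upstream of Falcor on the same strand (148042877 to 148046969), stood at 35.7, 31.4 and 35.5 CPM in shFalcor, against 92.2, 93.1 and 103 CPM in shCtrl. Every shFalcor library was far below every shCtrl library (log2 fold change −1.48 ± 0.10 SE, edgeR adjusted p = 1.89e-09). The shZC3H11A libraries had 98.1, 92.5 and 119 CPM of Foxa2 and 4, 3 and 6 counts of Falcor. Between the 2 knockdowns Falcor was not called apart (log2 fold change of shFalcor over shZC3H11A 0.1, edgeR adjusted p = 0.904), whereas Foxa2 was lower in shFalcor cells (−1.59, adjusted p = 5.01e-10).

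The promoter windows of both genes, from RefSeq (build GRCm38.p6, 250 bases before to 50 after the first start listed there, which for Falcor lies outside the gene bounds given above), are shown because the hairpin target and its neighbour fell together. Capitals mark the forkhead word TGTTTAC or TATTTAC on either strand.
Falcor, chr2:148040437-148040736, minus strand: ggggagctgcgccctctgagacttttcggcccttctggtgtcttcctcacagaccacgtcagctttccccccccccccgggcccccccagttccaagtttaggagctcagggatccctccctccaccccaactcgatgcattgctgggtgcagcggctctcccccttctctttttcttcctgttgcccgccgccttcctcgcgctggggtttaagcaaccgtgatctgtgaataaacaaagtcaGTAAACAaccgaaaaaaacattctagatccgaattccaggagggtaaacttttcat
Foxa2, chr2:148046920-148047219, minus strand: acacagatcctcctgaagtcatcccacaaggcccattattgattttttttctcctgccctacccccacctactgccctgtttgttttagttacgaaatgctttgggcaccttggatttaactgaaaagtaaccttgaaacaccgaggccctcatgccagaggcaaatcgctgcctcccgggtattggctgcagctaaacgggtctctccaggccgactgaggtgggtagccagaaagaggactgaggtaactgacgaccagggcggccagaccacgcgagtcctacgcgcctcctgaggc
The Falcor window held 1 forkhead word, read on the opposite strand, whose first base lies 6 bases before the start used, and the Foxa2 window held none. RefSeq lists 26 starts for Falcor and 3 for Foxa2, and only the first of each was searched. Forkhead words were present in 6.43% of the 27025 promoter windows of the table. A match is a stretch of letters and does not show binding, and its absence from a window shows nothing about FOXA2.

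Further along chromosome 2, 30 annotated protein-coding, lincRNA or antisense genes lay within 1 Mb of Falcor, itself included, and 8 of them were tested. Of these, 5 were called, against 51.5% of all genes. Kiz, which encodes a centrosome protein and lies 974643 bp away, was at 7.33, 11.7 and 11.5 CPM in shFalcor, against 18.4, 20.5 and 17.4 CPM in shCtrl (log2 fold change −0.88 ± 0.20 SE, edgeR adjusted p = 0.00153). Gzf1, a zinc finger gene, was called higher (0.31) and Cst3, the cystatin C gene, lower (−0.27). Cst3 missed the threshold without shFalcor replicate 3 (edgeR adjusted p = 0.0738), without shCtrl replicate 2 (0.0587) and with library totals alone (0.178). The exonuclease gene Xrn2 (−0.14, adjusted p = 0.178), Cd93 (0.86, adjusted p = 0.178) and the export cofactor gene Nxt1 (−0.41, adjusted p = 0.133) did not pass. Foxa2 had the largest absolute fold change of the 7 tested neighbours. The other forkhead genes of the family in liver, Foxa1 (0.16 ± 0.54 SE, adjusted p = 0.829) and Foxa3 (0.07 ± 0.23 SE, adjusted p = 0.824), were not called.

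Transcription factors of the hepatocyte network were mostly lower in shFalcor cells. Of 22 listed genes, 18 were tested, of which 11 were called lower and 1 higher (median log2 fold change −0.62). Higher members numbered 2 without shCtrl replicate 3, with upper quartile factors, with limma-voom or in the 6 libraries alone, and 3 with library totals alone. Onecut2, a cut-homeodomain factor of liver development, was at 50.8, 63.1 and 65.6 CPM in shFalcor, against 345, 341 and 248 CPM in shCtrl (log2 fold change −2.38 ± 0.18 SE, edgeR adjusted p = 1.3e-05). Hnf4a, a nuclear receptor that many hepatocyte genes depend on, was at 59.6, 58.8 and 62.1 CPM in shFalcor, against 128, 124 and 127 CPM in shCtrl (log2 fold change −1.07 ± 0.08 SE, edgeR adjusted p = 4.27e-09). Both had every shFalcor library below every shCtrl library. Ppara, the receptor that turns on fat oxidation in fasting, was at 54.1, 45.6 and 57.6 CPM in shFalcor, against 114, 125 and 100 CPM in shCtrl (log2 fold change −1.1 ± 0.10 SE, edgeR adjusted p = 5.23e-08). Onecut1 (−1.11), the homeodomain factor gene Prox1 (−0.93), Cebpb (−0.78), Gata6 (−0.67) and the bile acid receptor gene Nr1h4 (−0.58) fell as well. Gata4 was the member called higher, at 32.9, 33.5 and 40.4 CPM in shFalcor, against 21.4, 26.6 and 24.4 CPM in shCtrl (log2 fold change 0.58 ± 0.13 SE, edgeR adjusted p = 0.00106). Cebpa (0.43, adjusted p = 0.243) and Rxra (0.05, adjusted p = 0.558) did not pass.

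**Figure D2:**
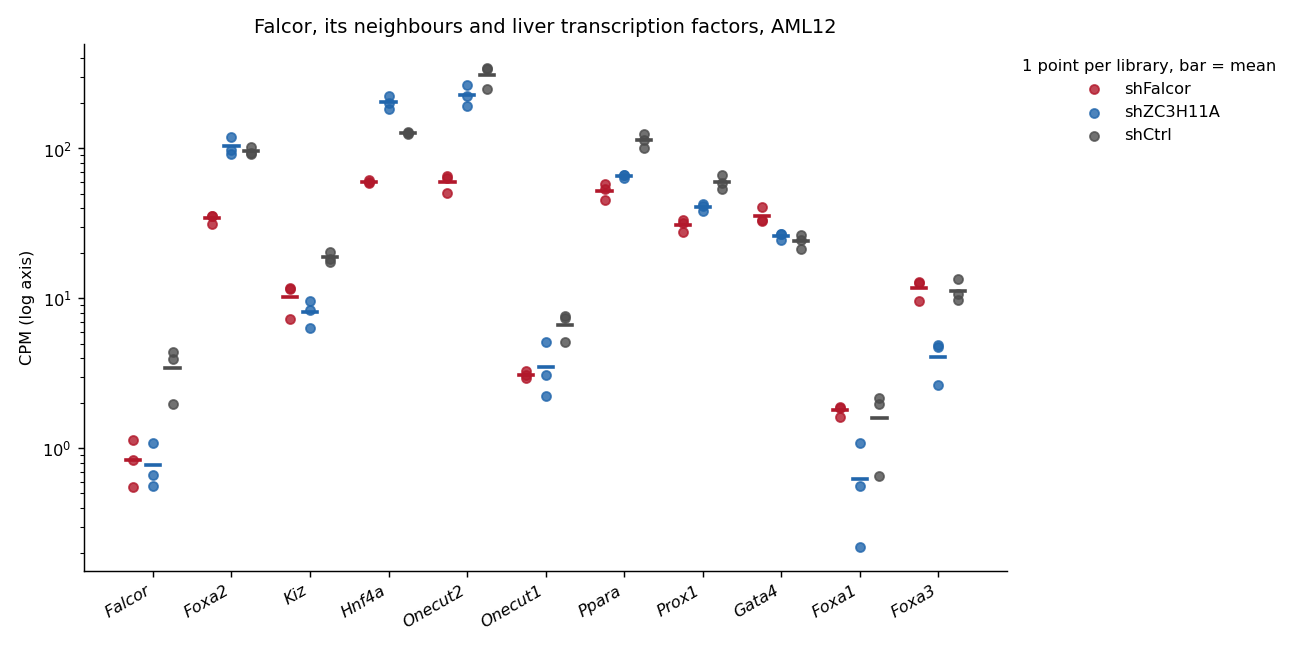
CPM on a log axis for Falcor, the neighbours Foxa2 and Kiz and 8 liver transcription factors, 1 point per library, with shFalcor on the left, shZC3H11A in the middle and shCtrl on the right (3 libraries each) and the mean as a bar. Falcor, Foxa2, Kiz, Hnf4a, Onecut2, Onecut1, Ppara and Prox1 had no shFalcor library as high as a shCtrl library, while Foxa1 and Foxa3 overlapped. Absence of overlap was common among all genes, so this is a description only.

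Genes of plasma proteins, the main products of hepatocytes, fell, some of them to a small part of the control level. Of 28 listed genes only 11 were abundant enough to test in this line, of which 9 were called lower and 1 higher (median log2 fold change −1.29). A further member was higher without shFalcor replicate 1, by DESeq2 or without the low-count filter. Ttr, which encodes the thyroid hormone and retinol carrier transthyretin, was at 3.26, 0.627 and 4.94 CPM in shFalcor, against 116, 124 and 153 CPM in shCtrl (log2 fold change −5.29 ± 0.32 SE, edgeR adjusted p = 1.6e-06, and −5.95 without shFalcor replicate 3). These are 20, 3 and 45 counts in shFalcor and 1006, 690 and 936 in shCtrl libraries. Albumin mRNA (Alb) was at 10.9, 10.2 and 12.2 CPM in shFalcor, against 52.8, 59.5 and 59.7 CPM in shCtrl (log2 fold change −2.35 ± 0.14 SE, edgeR adjusted p = 2.39e-10). Hpx, for the heme scavenger hemopexin, was at 18.4, 12.1 and 14.7 CPM in shFalcor, against 65.3, 73.5 and 70 CPM in shCtrl (log2 fold change −2.19 ± 0.14 SE, edgeR adjusted p = 6.22e-10). In each of the 3 genes the groups were well separated.

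The apolipoprotein genes Apoa1, Apoc2 and Apob were called lower, while Apoa2, Apoc3, Apoe and Apoh were too low to test. Apoa1, for the main protein of high density lipoprotein, had 0, 2 and 5 counts in the shFalcor libraries and 49, 37 and 36 counts in the shCtrl libraries (log2 fold change −4.04 ± 0.69 SE, edgeR adjusted p = 0.000685, and −4.89 without shFalcor replicate 3). Apoc2, for the activator of lipoprotein lipase, had 5, 8 and 3 counts in shFalcor and 90, 58 and 60 in shCtrl libraries (log2 fold change −3.6 ± 0.40 SE, edgeR adjusted p = 7.52e-07, and −4.21 without shFalcor replicate 2). Apob, the large apolipoprotein of very low density lipoprotein, was at 54.4, 47.7 and 60.7 CPM in shFalcor, against 92.7, 75.8 and 100.5 CPM in shCtrl (log2 fold change −0.71 ± 0.11 SE, edgeR adjusted p = 5.53e-05). The iron carrier gene Trf fell by a log2 value of 1.29, at 308, 258 and 276 CPM in shFalcor, against 644, 687 and 725 CPM in shCtrl. Serpina1a, which encodes the elastase inhibitor alpha-1-antitrypsin, was at 2.28, 1.67 and 1.65 CPM in shFalcor, against 34.7, 48 and 37.5 CPM in shCtrl (log2 fold change −4.41 ± 0.45 SE, edgeR adjusted p = 0.000118). It belongs to a family of near-identical copies, so counts may be split between it and Serpina1b (−4.81). The retinol carrier gene Rbp4 went the other way, at 78.3, 79.7 and 82.4 CPM in shFalcor, against 64.7, 64.9 and 65.1 CPM in shCtrl (log2 fold change 0.31 ± 0.09 SE, edgeR adjusted p = 0.00865), and Afp did not pass (0.69, adjusted p = 0.133).

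The proximal promoters of Alb and Rbp4 are shown because these secreted protein genes moved in opposite directions, with the same marks as above (RefSeq, GRCm38.p6).
Alb, chr5:90460620-90460919, plus strand: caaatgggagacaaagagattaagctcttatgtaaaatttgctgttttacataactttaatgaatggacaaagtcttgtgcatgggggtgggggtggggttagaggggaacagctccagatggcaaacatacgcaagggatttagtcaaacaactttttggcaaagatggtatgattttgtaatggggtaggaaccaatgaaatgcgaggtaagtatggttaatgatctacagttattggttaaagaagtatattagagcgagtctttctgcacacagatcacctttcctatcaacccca
Rbp4, chr19:38125272-38125571, minus strand: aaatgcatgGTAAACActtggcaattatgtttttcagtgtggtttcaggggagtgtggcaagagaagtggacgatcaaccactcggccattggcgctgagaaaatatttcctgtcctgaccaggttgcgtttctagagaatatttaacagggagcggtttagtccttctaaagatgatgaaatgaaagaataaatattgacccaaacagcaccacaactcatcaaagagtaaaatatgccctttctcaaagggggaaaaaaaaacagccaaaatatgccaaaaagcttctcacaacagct
The Rbp4 window held 1 forkhead word, read on the opposite strand, with its first base 241 bases before the first of its 2 listed starts. The Alb window held none. Windows were found for 8872 of the 11871 genes tested, and a forkhead word stood in 3.81% of them, in 5.34% of the 787 genes called at least 2-fold lower and in 3.75% of the 534 genes called at least 2-fold higher. The HNF4 word CAAAGTCCA or CAAAGGTCA, searched on both strands, stood in 0.654%, 1.65% and 0.749% of the same 3 groups. These shares are descriptions of short windows and were not tested.

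**Figure D3:**
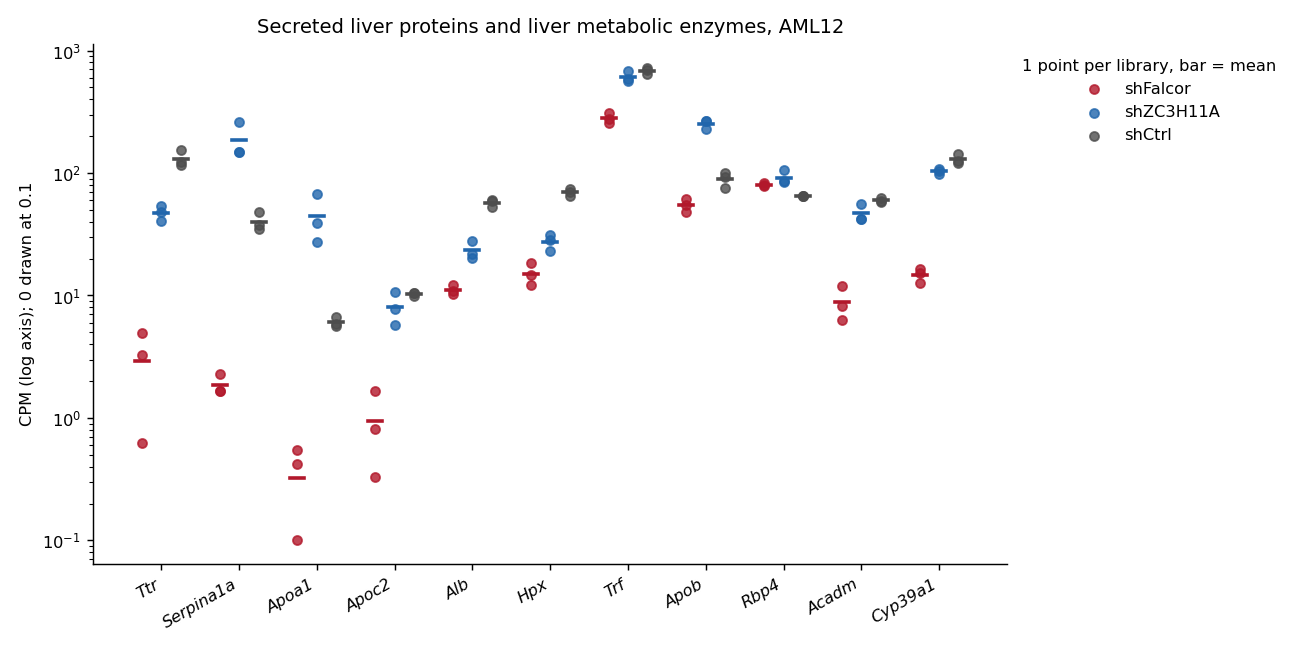
CPM on a log axis for 9 genes of secreted proteins and 2 genes of liver metabolism, 1 point per library and the mean as a bar, with shFalcor on the left, shZC3H11A in the middle and shCtrl on the right (3 libraries each). Except for Rbp4, every shFalcor library was below every shCtrl library, and the gap was widest for Ttr (−5.29), Serpina1a (−4.41) and Apoa1 (−4.04). Such separation was common among all genes and is a description only.

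Genes of the acute phase moved both ways. Among 23 acute phase and complement genes, 16 were tested, of which 6 were called lower and 3 higher (median log2 fold change −0.22). Lcn2, the iron-withholding protein lipocalin 2, was at 570.3, 445 and 510.1 CPM in shFalcor, against 1929, 1796 and 2057 CPM in shCtrl (log2 fold change −1.92 ± 0.09 SE, edgeR adjusted p = 8.17e-11). C3, the central complement component, was at 904, 844 and 916 CPM in shFalcor, against 1944, 1989 and 1974 CPM in shCtrl (log2 fold change −1.15 ± 0.06 SE, edgeR adjusted p = 1.94e-11). Socs3, the feedback inhibitor of interleukin 6 signalling, fell by 1.12 and Lbp, for the lipopolysaccharide-binding protein, by 0.92. Complement C1s (C1s1), in contrast, was at 33.9, 45 and 37 CPM in shFalcor, against 8.57, 10.1 and 11.3 CPM in shCtrl (log2 fold change 1.96 ± 0.17 SE, edgeR adjusted p = 2.54e-08). The acid glycoprotein gene Orm1 was at 17.3, 14.4 and 20.3 CPM in shFalcor, against 4.75, 4.31 and 5.41 CPM in shCtrl (log2 fold change 1.86 ± 0.19 SE, edgeR adjusted p = 2.2e-07). The haptoglobin gene Hp was near the detection limit, with 0, 0 and 6 counts in shFalcor and 28, 18 and 31 in shCtrl libraries (log2 fold change −3.66 ± 0.74 SE, edgeR adjusted p = 0.000525, and −7.55 without shFalcor replicate 3).

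Of 24 NF-kB targets and chemokine genes, 21 were tested, of which 15 were called lower and 3 higher (median log2 fold change −0.59). The neutrophil chemokine gene Cxcl5 was at 129.8, 106 and 93.4 CPM in shFalcor, against 578, 637 and 667 CPM in shCtrl (log2 fold change −2.52 ± 0.12 SE, edgeR adjusted p = 8.9e-09). The inhibitor genes of the pathway fell with it, Nfkbia by 1.06 and Tnfaip3 by 0.73, as did the adhesion molecule genes Icam1 (−0.81) and Vcam1 (−0.8). Of the DNA-binding subunit genes, Rela rose (0.77), while Relb (−0.59), Nfkb1 (−0.39) and Nfkb2 (−0.2) were called lower. The count of 3 higher members became 1 without shFalcor replicate 1. Interferon-induced genes were near the background, with 6 of 21 lower and 4 higher. Genes that load and present peptides on MHC class I fell together: of 8 tested, 6 were called lower and 0 higher (median log2 fold change −1.54). B2m, for the invariant light chain, was at 151, 133 and 159 CPM in shFalcor, against 515, 534 and 526 CPM in shCtrl (log2 fold change −1.83 ± 0.07 SE, edgeR adjusted p = 7.34e-13). The heavy chain gene H2-K1 was at 10.3, 14.2 and 12.7 CPM in shFalcor, against 37, 40.2 and 39.7 CPM in shCtrl (log2 fold change −1.65 ± 0.13 SE, edgeR adjusted p = 1.25e-08). The heavy chain genes of this locus are close copies of one another, so their counts may be shared. Erap1 (−1.93), which trims the peptides, and Tapbp (−1.42), which loads them, fell too.

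Immediate early genes, which respond to growth factors and stress within minutes, were lower in 15 of 20 cases and higher in 2 (median −1.08). Dusp1, a phosphatase that switches off MAP kinases, was at 18.4, 16.1 and 19.8 CPM in shFalcor, against 142, 159 and 121 CPM in shCtrl (log2 fold change −2.94 ± 0.11 SE, edgeR adjusted p = 5.96e-13). Jun was at 49.8, 75.5 and 71.5 CPM in shFalcor, against 252, 309.6 and 218 CPM in shCtrl (log2 fold change −1.98 ± 0.19 SE, edgeR adjusted p = 5.86e-05), and its partner in the AP-1 dimer, Fos, at 71.3, 79.2 and 68 CPM in shFalcor, against 168, 169 and 151 CPM in shCtrl (log2 fold change −1.17 ± 0.07 SE, edgeR adjusted p = 6.24e-10). Jun and Fos thus fell together, and Egr1, a zinc finger factor, was at 226, 230.4 and 233 CPM in shFalcor, against 587, 523 and 469 CPM in shCtrl (log2 fold change −1.2 ± 0.11 SE, edgeR adjusted p = 2.42e-06). None of these 4 genes overlapped between the groups, which by itself does not set them apart from other genes. Fosl2 (1.17) was higher. Nr4a1 was called higher by a small margin (log2 fold change 0.38 ± 0.14 SE, edgeR adjusted p = 0.0322), and missed the threshold without shFalcor replicate 1 or 2 or shCtrl replicate 1 or 3, with adjusted p of 0.0627 to 0.148, which left 1 higher member in 3 of these 4 fits.

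Of 11 feedback genes and targets of the MAP kinase pathway, 5 were called lower and 2 higher (median log2 fold change −0.3). The phosphatase gene Dusp6 was at 66.9, 39.7 and 49.2 CPM in shFalcor, against 166, 185 and 169 CPM in shCtrl (log2 fold change −1.73 ± 0.15 SE, edgeR adjusted p = 1.02e-05). Spry4 (−1.77) and Spred1 (−1.9), inhibitors of the pathway, fell too. Their relative Spry2 rose (0.66), as did the transcription factor gene Etv5 (0.72). The related inhibitor genes Spry1 (0.24, edgeR adjusted p = 0.307) and Spred2 (0.2, adjusted p = 0.0775) were not called. Higher members numbered 1 without shFalcor replicate 3 or without shCtrl replicate 2.

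Genes known to be induced by glucocorticoids formed a list that was put together after the values were seen, so its counts are a description only. Of 22 members, 17 were tested, of which 15 were called lower and 0 higher (median log2 fold change −1.14), and it shares Dusp1, Lcn2, Nfkbia and others with the lists above. Sgk1, a kinase that controls ion transport, was at 142, 123 and 126 CPM in shFalcor, against 803, 821 and 782 CPM in shCtrl (log2 fold change −2.62 ± 0.07 SE, edgeR adjusted p = 9.23e-15). Tsc22d3, which encodes the anti-inflammatory protein GILZ, was at 181, 167 and 179 CPM in shFalcor, against 457, 555 and 491 CPM in shCtrl (log2 fold change −1.51 ± 0.07 SE, edgeR adjusted p = 1.71e-11). Fkbp5, a co-chaperone of the receptor, was at 288, 275 and 289 CPM in shFalcor, against 677, 696 and 677 CPM in shCtrl (log2 fold change −1.27 ± 0.05 SE, edgeR adjusted p = 4.2e-12). In all 3 the groups were wide apart. The receptor gene Nr3c1 was itself lower, at 64.6, 78.8 and 79.1 CPM in shFalcor, against 132, 128 and 110.3 CPM in shCtrl (log2 fold change −0.73 ± 0.09 SE, edgeR adjusted p = 2.98e-06). The clock gene Per1 was at 217, 253 and 244 CPM in shFalcor, against 245, 283 and 216 CPM in shCtrl, and did not pass (edgeR adjusted p = 0.597).

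Fat oxidation genes were mostly lower. Of 24 tested members of the list of fatty acid oxidation genes and PPAR alpha targets, 15 were called lower and 4 higher (median log2 fold change −0.45). Acadm, the dehydrogenase of medium-chain fatty acids, was at 12, 8.15 and 6.26 CPM in shFalcor, against 58.5, 62.9 and 59.3 CPM in shCtrl (log2 fold change −2.8 ± 0.18 SE, edgeR adjusted p = 5.05e-09). Peroxisomal Ehhadh (−1.32) and Acaa1a (−0.74) and the mitochondrial trifunctional protein gene Hadha (−0.47) fell less. Acaa2 (0.34) and Acot2 (0.89) rose. Cpt1a, the gate for fatty acid entry into mitochondria, was called higher by a small margin (log2 fold change 0.16 ± 0.06 SE, edgeR adjusted p = 0.0339), and missed the threshold without shFalcor replicate 1 or 3 or shCtrl replicate 1 or 2, with adjusted p of 0.0588 to 0.147.

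Lipid synthesis moved both ways. Of 23 fatty acid and triglyceride synthesis genes, 8 were called higher and 7 lower. Fasn, the fatty acid synthase gene, was at 412, 414 and 429.6 CPM in shFalcor, against 277, 275 and 283 CPM in shCtrl (log2 fold change 0.59 ± 0.06 SE, edgeR adjusted p = 3.43e-07). The elongase gene Elovl6 was at 3.91, 5.44 and 5.16 CPM in shFalcor, against 22.5, 21 and 18.7 CPM in shCtrl (log2 fold change −2.1 ± 0.17 SE, edgeR adjusted p = 1.31e-08). Of 25 cholesterol genes, 6 were called higher and 7 lower, close to the background. Ebp, a sterol isomerase gene of late cholesterol synthesis, was at 32.4, 29.9 and 32.8 CPM in shFalcor, against 163, 168 and 178 CPM in shCtrl (log2 fold change −2.41 ± 0.08 SE, edgeR adjusted p = 1.88e-13). Stard4, a sterol carrier gene, fell by 2.17. Fdft1, for squalene synthase, was at 68.2, 69.2 and 67.6 CPM in shFalcor, against 44.2, 32.9 and 28.8 CPM in shCtrl (log2 fold change 0.94 ± 0.13 SE, edgeR adjusted p = 1e-05). Synthesis genes of this list thus lay on both sides of the control. The large endocytic receptor gene Lrp1 was at 774, 845 and 879 CPM in shFalcor, against 299, 308 and 328 CPM in shCtrl (log2 fold change 1.42 ± 0.06 SE, edgeR adjusted p = 9.2e-12).

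Glycolysis genes were called higher in 8 of 18 cases and lower in 3, among them Pgam1 (0.94), Hk1 (0.75) and Eno1 (0.48) higher.

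Enzymes and transporters of detoxification were split. Of 24 conjugation enzyme genes, 11 were called lower and 6 higher (median log2 fold change −0.43). The sulfotransferase gene Sult1a1 (−2.17) and the glutathione transferases Gsta3 (−1.36), Gstp1 (−1.34) and Gstm1 (−1.0) fell. Gsta2 had 21, 13 and 25 counts in the shFalcor libraries and 1, 0 and 0 in the shCtrl libraries, a ratio of 59.8 (95% exact interval 10.3 to 2400, for counting error only). Its log2 fold change in edgeR was 5.45, and 7.19 without shCtrl replicate 1, and it has close copies, Gsta1 (1.76) among them. Cyp39a1, an oxysterol hydroxylase gene of bile acid synthesis, was at 16.4, 12.8 and 15.2 CPM in shFalcor, against 125, 142 and 120.3 CPM in shCtrl (log2 fold change −3.11 ± 0.10 SE, edgeR adjusted p = 2.3e-13). The export pump gene Abcc2 was at 131, 129 and 128 CPM in shFalcor, against 31.4, 40.4 and 27.5 CPM in shCtrl (log2 fold change 1.97 ± 0.13 SE, edgeR adjusted p = 1.11e-09). The pump genes Abcb1a (1.48) and Abcg2 (1.06) were also higher, while Abcc3 was lower (−0.93).

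Targets of the antioxidant factor NRF2 were called higher in 9 of 22 cases and lower in 10. Hmox1, which degrades heme, was at 296, 259 and 282 CPM in shFalcor, against 99.3, 97.2 and 100 CPM in shCtrl (log2 fold change 1.5 ± 0.07 SE, edgeR adjusted p = 2.04e-11). Gclm, the modifier subunit of the enzyme that starts glutathione synthesis, was at 20.4, 15.7 and 19.3 CPM in shFalcor, against 131, 113 and 118 CPM in shCtrl (log2 fold change −2.7 ± 0.10 SE, edgeR adjusted p = 1.19e-12). Its catalytic partner Gclc fell as well (−1.34). The cystine importer gene Slc7a11 was at 31.7, 26.8 and 23.4 CPM in shFalcor, against 15.9, 11.7 and 12.1 CPM in shCtrl (log2 fold change 1.03 ± 0.17 SE, edgeR adjusted p = 8.91e-05).

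Of 22 ATF4 targets, which serve amino acid supply under stress, 12 were called higher and 5 lower (median log2 fold change 0.36). Shmt2, of mitochondrial serine metabolism, was at 91.5, 89.1 and 93.4 CPM in shFalcor, against 52.4, 46.7 and 49.3 CPM in shCtrl (log2 fold change 0.88 ± 0.08 SE, edgeR adjusted p = 1.09e-07). Asns, for asparagine synthetase, was at 179.7, 177 and 182 CPM in shFalcor, against 117, 122 and 121 CPM in shCtrl (log2 fold change 0.58 ± 0.06 SE, edgeR adjusted p = 5.5e-07). Chac1, which degrades glutathione, was at 22.6, 30.3 and 24.3 CPM in shFalcor, against 10.7, 5.93 and 10 CPM in shCtrl (log2 fold change 1.51 ± 0.25 SE, edgeR adjusted p = 0.000136). In each of these genes the shFalcor libraries were all above the shCtrl libraries. Psat1, of serine synthesis, was lower, at 158, 138 and 166 CPM in shFalcor, against 323, 364 and 343 CPM in shCtrl (log2 fold change −1.15 ± 0.07 SE, edgeR adjusted p = 4.78e-10).

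Chaperones of the endoplasmic reticulum were mostly lower. Of 21 genes of the unfolded protein response, 13 were called lower and 3 higher (median log2 fold change −0.4). The chaperone gene Hspa5 was at 257, 233 and 258 CPM in shFalcor, against 382, 398 and 356 CPM in shCtrl (log2 fold change −0.6 ± 0.07 SE, edgeR adjusted p = 5.98e-07), and Calr, a calcium-binding chaperone gene, was at 329, 308 and 308 CPM in shFalcor, against 569.6, 572 and 570.1 CPM in shCtrl (log2 fold change −0.86 ± 0.06 SE, edgeR adjusted p = 9.89e-10). Ero1b, an oxidase for disulfide bonds, fell by 1.48, and Ero1a rose (0.57). Targets of p53 were called 9 times higher and 9 times lower of 22, with Bax (0.96) higher, Gdf15 (−1.19) lower and Cdkn1a (−0.04, adjusted p = 0.656) and Mdm2 (0.08, adjusted p = 0.403) not called.

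Cell cycle genes gave few calls. Of 25 mitosis genes, 0 were called higher and 1 lower by edgeR (Top2a, −1.38), against 26.0% lower of all genes, although the median was −0.40. Their CPM were low, and 2 of the 25 were called lower by DESeq2 and 4 in a fit of the 6 libraries alone. Mki67, the proliferation marker, was at 4.88, 2.51 and 5.49 CPM in shFalcor, against 8.22, 9.34 and 8.85 CPM in shCtrl (log2 fold change −0.97 ± 0.50 SE, edgeR adjusted p = 0.142), and was called lower by DESeq2 (adjusted p = 0.0315), without the low-count filter (adjusted p = 0.00519) and in the 6 libraries alone (adjusted p = 0.00663). Leaving out shFalcor replicate 1, shFalcor replicate 3 or shCtrl replicate 1 gave 2, 3 and 2 members called lower. Of 24 DNA replication genes, 6 were called lower and 2 higher. Without shFalcor replicate 3 they were 3 and 1, DESeq2 called 3 lower, and 1 was higher without shCtrl replicate 1. Rrm2, for the small subunit of ribonucleotide reductase, was at 35, 33.7 and 26.6 CPM in shFalcor, against 81.7, 88 and 83.8 CPM in shCtrl (log2 fold change −1.43 ± 0.11 SE, edgeR adjusted p = 5.83e-09). Ccnd1, for cyclin D1, was at 419, 329 and 369 CPM in shFalcor, against 868, 822 and 947 CPM in shCtrl (log2 fold change −1.24 ± 0.08 SE, edgeR adjusted p = 1.18e-09).

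Among 21 genes of the TGF beta pathway, 12 were called lower and 3 higher (median log2 fold change −0.47). The ligand gene Tgfb1 was at 47.5, 42.7 and 46.6 CPM in shFalcor, against 115, 119.7 and 109.7 CPM in shCtrl (log2 fold change −1.33 ± 0.08 SE, edgeR adjusted p = 1.86e-10), and the ligand gene Tgfb2 fell by 1.60. The feedback gene Smad7 fell (−0.59), and Smad2, which carries the signal to the nucleus, rose (0.9).

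Integrins, the receptors for matrix, were all called, with 7 of 11 higher and 4 lower. Itga6, which forms laminin receptors, was at 201, 233 and 223 CPM in shFalcor, against 71.8, 69.7 and 65.4 CPM in shCtrl (log2 fold change 1.66 ± 0.08 SE, edgeR adjusted p = 1.3e-11), and its partner Itgb4 rose too (1.01). The common beta chain gene Itgb1 was at 207, 194 and 215 CPM in shFalcor, against 541, 561 and 518 CPM in shCtrl (log2 fold change −1.39 ± 0.07 SE, edgeR adjusted p = 5.62e-11). The laminin chain gene Lama3 was at 7.82, 9.41 and 7.58 CPM in shFalcor, against 0.81, 0.18 and 0.983 CPM in shCtrl (log2 fold change 3.56 ± 0.53 SE, edgeR adjusted p = 2.26e-05), and Lamb3 (0.72) rose less. Of 19 epithelial and junction genes, 10 were called higher and 4 lower (median log2 fold change 0.31), including the desmosome genes Jup (0.86), Pkp2 (0.89) and Dsp (0.31) and the tight junction genes Tjp1 (0.63) and Cgn (0.74), while Cldn2 fell (−1.73).

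Lysosome and vacuolar proton pump genes were a second list put together after the values were seen. Of 43 tested, 25 were called higher and 9 lower (median log2 fold change 0.28). Atp6v1b2, a subunit of the pump, was at 398, 389 and 389.6 CPM in shFalcor, against 96.2, 89.8 and 106 CPM in shCtrl (log2 fold change 2.01 ± 0.07 SE, edgeR adjusted p = 2.3e-13). The galactosidase gene Gla was at 57.1, 51.9 and 45.8 CPM in shFalcor, against 20.3, 17.8 and 20.8 CPM in shCtrl (log2 fold change 1.39 ± 0.12 SE, edgeR adjusted p = 2.91e-08). Lamp1, the abundant membrane protein of lysosomes, was lower, at 868, 849 and 891 CPM in shFalcor, against 1187, 1193 and 1137 CPM in shCtrl (log2 fold change −0.43 ± 0.06 SE, edgeR adjusted p = 1.84e-05). The pump accessory gene Atp6ap2 was lower too (−1.7).

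Nuclear speckle genes were of interest because the series places Falcor there. Of 35 speckle and SR protein genes tested, a list that takes in the RNA Malat1, 16 were called lower and 5 higher. The median was −0.10 and turned to 0.05 when libraries were scaled by totals alone. Malat1, the speckle RNA, was at 3883, 5793 and 5004 CPM in shFalcor, against 13561, 14833 and 10341 CPM in shCtrl (log2 fold change −1.4 ± 0.24 SE, edgeR adjusted p = 0.00305). Srsf9 was at 7.82, 4.6 and 7.47 CPM in shFalcor, against 19.1, 17.1 and 22.3 CPM in shCtrl (log2 fold change −1.52 ± 0.21 SE, edgeR adjusted p = 7.32e-06). The splicing factor genes Rbm39 (−1.28), Pnn (−1.3), Luc7l3 (−1.09) and Srsf6 (−0.93) fell too. Of the 2 large scaffold proteins that speckles are built on, Srrm2 was higher, at 765, 845 and 860.3 CPM in shFalcor, against 346, 299 and 296 CPM in shCtrl (log2 fold change 1.39 ± 0.08 SE, edgeR adjusted p = 7.95e-10), and Son did not pass (0.16, adjusted p = 0.129), but was called higher without shCtrl replicate 3 (0.24, adjusted p = 0.0226), with upper quartile factors (0.22, adjusted p = 0.0427) and with library totals alone (0.31, adjusted p = 0.00569). Neat1, the RNA of the adjacent paraspeckles, was at 529, 814 and 639.9 CPM in shFalcor, against 824, 699.5 and 596 CPM in shCtrl, and was not called (edgeR adjusted p = 0.692).

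Srsf3 stood out from this family. It was at 35.3, 22.4 and 31.1 CPM in the shFalcor libraries, 2.64, 2.65 and 2.73 CPM in the shZC3H11A libraries and 1.16, 0.359 and 2.95 CPM in the shCtrl libraries. The log2 fold change of shFalcor over shCtrl was 4.31 ± 0.36 SE (edgeR adjusted p = 1.22e-07), and 5.12 without shCtrl replicate 3. The shCtrl libraries held 10, 2 and 18 counts, and the same gene had scaled values of 121, 121 and 118 in the inducible shLinc libraries with doxycycline and 145, 148 and 148 in the inducible shCtrl libraries with doxycycline. How reads were shared between Srsf3 and its copies elsewhere in the genome is not given in the sources used here. Genes of the core spliceosome and of nuclear RNA-binding proteins were called higher in 13 of 40 cases and lower in 9. The RNA-binding protein gene Hnrnpa1 was at 174, 143 and 138 CPM in shFalcor, against 50.8, 46 and 59.5 CPM in shCtrl (log2 fold change 1.54 ± 0.16 SE, edgeR adjusted p = 1.15e-05). Its relative Hnrnpa2b1 was at 19.9, 11.7 and 10.8 CPM in shFalcor, against 28.4, 50.9 and 40.5 CPM in shCtrl (log2 fold change −1.5 ± 0.28 SE, edgeR adjusted p = 0.00153). Scaling by library totals alone gave 21 higher and 4 lower.

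Genes of the TREX complex, with which ZC3H11A associates, and of mRNA export were called higher in 9 of 31 cases and lower in 8, close to the background. Ddx39b, the helicase of the complex, was at 146, 128 and 141 CPM in shFalcor, against 40.4, 31.1 and 46.2 CPM in shCtrl (log2 fold change 1.81 ± 0.12 SE, edgeR adjusted p = 2.75e-09). Thoc1, a core subunit, was at 4.72, 5.65 and 3.84 CPM in shFalcor, against 1.62, 0.719 and 1.64 CPM in shCtrl (log2 fold change 1.78 ± 0.42 SE, edgeR adjusted p = 0.00187). Both of these were higher in shFalcor. The export adaptor gene Fyttd1 was at 11.9, 7.94 and 10.4 CPM in shFalcor, against 41, 37 and 34.1 CPM in shCtrl (log2 fold change −1.87 ± 0.15 SE, edgeR adjusted p = 1.47e-08). Zc3h11a was at 38.9, 32.4 and 41.1 CPM in shFalcor, against 64.6, 67.4 and 58.8 CPM in shCtrl (log2 fold change −0.75 ± 0.24 SE, edgeR adjusted p = 0.0243). Without any single library other than shCtrl replicate 3 it missed the threshold, with adjusted p of 0.0504 to 0.079, and it missed it with library totals alone (0.0555). It has 2 overlapping gene models under 1 symbol, so its counts can include both.

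Cytosolic ribosomal protein genes shifted by little but in 1 direction. Of 52 tested, 41 were called lower and 0 higher, with a median of −0.37 (−0.22 with library totals alone, when 1 was called higher). Rplp0, of the ribosomal stalk, fell furthest among the listed genes, at 977, 971 and 968 CPM in shFalcor, against 2513, 2545 and 2442 CPM in shCtrl (log2 fold change −1.36 ± 0.05 SE, edgeR adjusted p = 7.05e-13). Rps13, a ribosomal protein gene outside the list, was at 63.5, 56.5 and 46.6 CPM in shFalcor, against 346, 378 and 357 CPM in shCtrl (log2 fold change −2.71 ± 0.09 SE, edgeR adjusted p = 2.3e-13). Processed copies of these genes in the genome can take or give reads. Nuclear-encoded respiratory chain genes were called higher in 15 of 44 cases and lower in 8, and 5 lower without shFalcor replicate 3. Ndufa4, a subunit gene of complex IV, was at 38.6, 31.2 and 35.1 CPM in shFalcor, against 101, 119.7 and 107 CPM in shCtrl (log2 fold change −1.63 ± 0.09 SE, edgeR adjusted p = 1.83e-10). Of 20 aminoacyl tRNA synthetase genes, 9 were called higher and 4 lower, and Nars, for the asparagine enzyme, was at 66.9, 36.4 and 39.7 CPM in shFalcor, against 204, 207 and 202 CPM in shCtrl (log2 fold change −2.1 ± 0.19 SE, edgeR adjusted p = 2.43e-05).

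**Figure D4:**
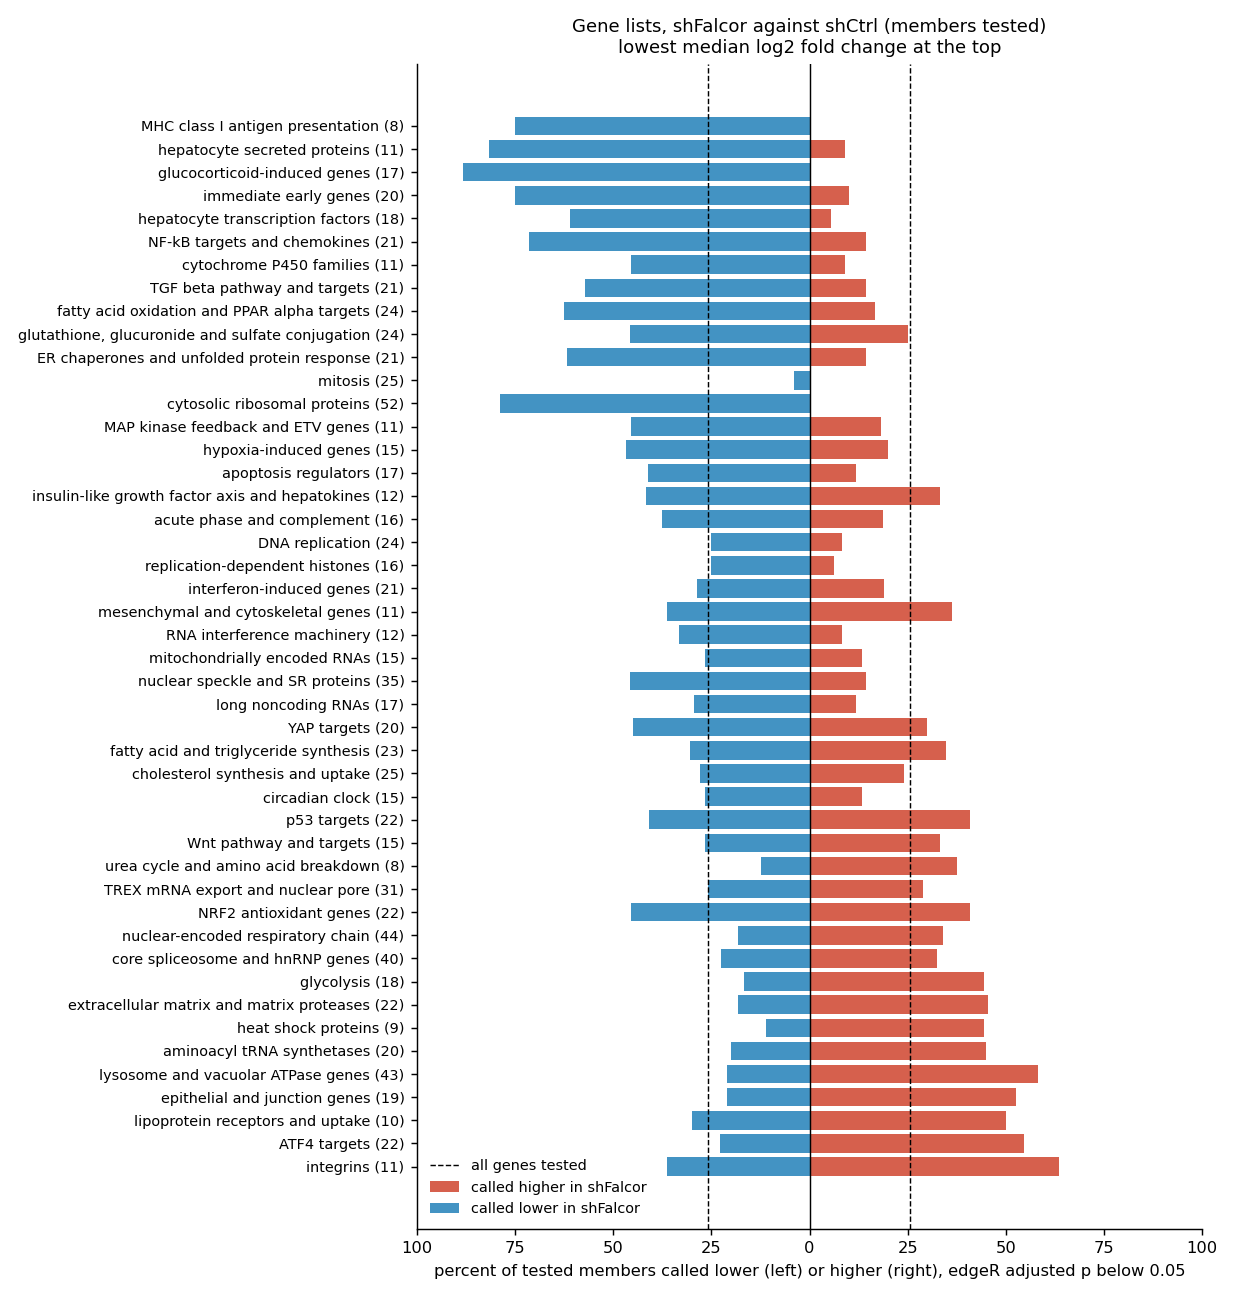
Percent of tested members called higher (right, red) or lower (left, blue) in shFalcor against shCtrl, for the gene lists with at least 8 tested members, whose number is in brackets. Dashed lines are the shares of all genes tested, 25.5% higher and 26.0% lower. Lists at the top, such as MHC class I and secreted proteins, passed the left line by far, and mitosis genes stayed short of both. The lists of glucocorticoid-induced genes and of lysosome genes were put together after the values were seen, so their bars are a description only.

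The largest increases were genes almost silent in control cells. The low-count filter and the naming rule of 5 CPM in the higher group can be met by 1 group alone. That genes near 0 in the other group head the list therefore follows in part from the selection. The same applies to the largest falls below. Card14, a scaffold protein of NF-kB signalling in skin, had 23, 37 and 59 counts in the shFalcor libraries and 0, 0 and 1 in the shCtrl libraries, a ratio of 121 (95% exact interval 21.2 to 4800). Its log2 fold change in edgeR was 6.44, with 5.82 without shCtrl replicate 1 and 8.26 without shCtrl replicate 3. Chil1, a secreted chitinase-like protein of inflamed tissue, was at 9.93, 16.3 and 17 CPM in shFalcor, against 0, 0.359 and 0.492 CPM in shCtrl (log2 fold change 5.75 ± 0.54 SE, edgeR adjusted p = 1.1e-07). Bdh2, a cytosolic dehydrogenase gene, was at 7.0, 7.32 and 5.82 CPM in shFalcor, against 0.347, 0.18 and 0 CPM in shCtrl (log2 fold change 4.97 ± 0.67 SE, edgeR adjusted p = 7.3e-06). These 3 genes had at most a few counts in any shCtrl library. Without shCtrl replicate 1 or 3, Chil1 was at 5.01 or 6.47, and Bdh2 was at 5.98 without shCtrl replicate 1. Cd68, a lysosomal membrane protein best known in macrophages, was at 50.3, 50.2 and 47.2 CPM in shFalcor, against 4.63, 3.95 and 2.95 CPM in shCtrl (log2 fold change 3.65 ± 0.20 SE, edgeR adjusted p = 9.28e-11). Nectin4, a cell adhesion gene, was at 9.93, 10.2 and 10.2 CPM in shFalcor, against 1.39, 1.26 and 0.656 CPM in shCtrl (log2 fold change 3.15 ± 0.35 SE, edgeR adjusted p = 7.98e-07).

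At the other end, Slco1a6, an organic anion transporter gene, had 0, 0 and 6 counts in the shFalcor libraries and 150, 107 and 112 in the shCtrl libraries (log2 fold change −5.88 ± 0.47 SE, edgeR adjusted p = 1.12e-08, and −9.80 without shFalcor replicate 3). The water channel gene Aqp1 had 3, 0 and 3 counts in shFalcor and 100, 72 and 75 in shCtrl libraries (log2 fold change −5.28 ± 0.49 SE, edgeR adjusted p = 8.08e-08). Muc5b, a secreted mucin, was at 3.09, 1.05 and 2.86 CPM in shFalcor, against 42.1, 31.6 and 40.5 CPM in shCtrl (log2 fold change −3.94 ± 0.25 SE, edgeR adjusted p = 1.47e-09). Cybb, for the catalytic subunit of the phagocyte NADPH oxidase, was at 0.488, 1.46 and 0.659 CPM in shFalcor, against 15.7, 17.4 and 17.5 CPM in shCtrl (log2 fold change −4.35 ± 0.33 SE, edgeR adjusted p = 6.5e-09).

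The smallest p-values belonged to abundant genes with tight replicates. Antxr2, an anthrax toxin receptor gene, was at 33.4, 28.6 and 29 CPM in shFalcor, against 265, 256 and 250.3 CPM in shCtrl (log2 fold change −3.08 ± 0.07 SE, edgeR adjusted p = 9.23e-15). Myo6, an unconventional myosin gene, was at 22.6, 22.2 and 22.7 CPM in shFalcor, against 202, 209 and 194 CPM in shCtrl (log2 fold change −3.16 ± 0.09 SE, edgeR adjusted p = 4.5e-14). Ldhd, for a mitochondrial D-lactate dehydrogenase, was at 46.1, 34.7 and 35.3 CPM in shFalcor, against 334, 357 and 327 CPM in shCtrl (log2 fold change −3.13 ± 0.09 SE, edgeR adjusted p = 4.5e-14). In all 3 every shFalcor library was far below every shCtrl library. Absence of overlap was a condition for naming them, so it is no further support. Igfbp4, a secreted binding protein of insulin-like growth factors, was at 698, 612 and 662 CPM in shFalcor, against 2908, 3019.8 and 3119 CPM in shCtrl (log2 fold change −2.2 ± 0.07 SE, edgeR adjusted p = 1.8e-13). Porcn, which lipidates Wnt ligands, was at 83.2, 70.7 and 77.1 CPM in shFalcor, against 582, 583 and 602 CPM in shCtrl (log2 fold change −2.93 ± 0.09 SE, edgeR adjusted p = 1.74e-13). The Wnt ligand gene Wnt4 was at 28.2, 31.8 and 28.8 CPM in shFalcor, against 98.2, 106 and 103 CPM in shCtrl (log2 fold change −1.79 ± 0.08 SE, edgeR adjusted p = 1.3e-11).

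Markers were used to check the labelled cell type. Their summed levels below, given as CPM, were scaled by library totals alone, without TMM factors. These sums are therefore not on the scale of the CPM of single genes. With library totals alone the median log2 fold change of all genes, shFalcor over shCtrl, was 0.142, against −0.0049 with TMM factors. All 10 hepatocyte markers were detected and tested, and their summed level was 2180 to 2300 CPM in shFalcor and 2740 to 2960 CPM in shCtrl libraries, most of it from the keratins Krt8 (−0.29) and Krt18 (0.08, adjusted p = 0.268). Of these markers 9 were called lower and 0 higher. Of 7 cholangiocyte markers, 5 were tested, 2 were called lower and 0 higher, Epcam and Cftr had 0 counts in all 6 libraries, and their sum was 932 to 971 CPM in shFalcor and 870 to 975 CPM in shCtrl libraries. Of 7 macrophage markers, Cd68 and Cd14 (−1.69) were tested, Adgre1, Clec4f and Ptprc had 0 counts in all 6 libraries, and the sum was 84.4 to 86.9 CPM in shFalcor and 87.1 to 111 CPM in shCtrl libraries. No endothelial marker passed the filter, with Tie1 and Lyve1 at 0 counts (0.894 to 1.44 CPM in shFalcor and 0.16 to 0.792 CPM in shCtrl libraries), and of the stellate cell and fibroblast markers 1 did, Des, called higher (0.79), with a sum of 24.7 to 29.5 CPM in shFalcor and 11.4 to 20.1 CPM in shCtrl libraries. The part of these markers in the results was not tested.

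Protein-coding genes, 10499 of those tested, were called higher 2901 times and lower 2813 times. Of 187 lincRNA genes, 23 were called higher and 35 lower, and of 228 unconfirmed transcripts of the annotation's class TEC, 5 higher and 42 lower (median −0.605). Chromosome medians ran from −0.11 for chromosome 3 to 0.08 for chromosome 18. Chromosome 2, which carries Falcor, was within that range.

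The direct contrast with the ZC3H11A hairpin uses no control library and shows where the Falcor hairpin cells differ from another knockdown of the same line. It called 6760 genes (56.9%), 3368 higher (28.4%) and 3392 lower (28.6%) in shFalcor cells. Hnf4a was at 59.6, 58.8 and 62.1 CPM in shFalcor and 183, 203 and 223 CPM in shZC3H11A libraries (−1.75, adjusted p = 4.51e-12). Apob was at 54.4, 47.7 and 60.7 CPM in shFalcor and 229, 264 and 263 CPM in shZC3H11A libraries (−2.2, adjusted p = 1.05e-10). Serpina1a was at 2.28, 1.67 and 1.65 CPM in shFalcor and 148, 149 and 263 CPM in shZC3H11A libraries (−6.64, adjusted p = 3.89e-06). Of the secreted protein genes 9 were lower and 1 higher in this contrast. Mitosis genes were lower in 21 of 25 cases and higher in 0, and ribosomal protein genes lower in 43 and higher in 2 of 52. The matricellular gene Ccn2 was at 238, 225 and 222 CPM in shFalcor and 1366, 1448 and 1619 CPM in shZC3H11A libraries (−2.7, adjusted p = 3.36e-13). The innate immune adaptor gene Sting1 was at 4.56, 5.44 and 5.27 CPM in shFalcor and 0, 0 and 0.182 CPM in shZC3H11A libraries (6.04, adjusted p = 6.9e-07), and for shFalcor over shCtrl it was at 0.56 (adjusted p = 0.225).

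The inducible Falcor hairpin gives the same question in other AML12 libraries that share no control with this comparison. Its values are deposited units that sum to nearly the same total in every library, and were fitted as log2(scaled value + 1), which understates the change of low genes, and its lines also differed before doxycycline. Of 5299 genes called here and measured there, 3288 had the same direction with doxycycline (62.1%), with 61.3% of the genes higher here also higher there and 62.8% of the lower genes also lower, against 51.1% of all genes higher there. Across these genes, which share libraries and are not independent, r was 0.215 over the 9377 genes measured in both. Without doxycycline the share was 42.6% and r −0.19. With doxycycline limma called 52.5% of all genes measured there (25.4% higher, 27.0% lower) and 65.3% without it (30.1% higher, 35.2% lower). The split without doxycycline turned to 45.2% higher and 21.7% lower when the deposited values were not rescaled. In NCD livers 45.5% of 4283 genes had the same direction in knockout over control, r was −0.06 over 7439 genes, and limma called 6.03% of all genes (4.19% higher, 1.84% lower). That count depended on the settings, with 18.3% called without rescaling (17.4% higher, 0.933% lower) and 2.14% with a mean of at least 1.

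Several of the secreted protein and liver factor genes had the same direction with doxycycline in shLinc over shCtrl. Alb stood at scaled values of 35.8, 32.9 and 34.6 in shLinc and 91.6, 95.7 and 94.4 in shCtrl lines with doxycycline (−1.42, limma adjusted p = 1.23e-13), and it was also lower without doxycycline (−0.5). Ttr was at −0.68 with and 1.34 without doxycycline, Hnf4a at −0.35 and 0.37, Onecut2 at −1.07 and 0.95, Ldhd at −0.9 and 1.08, Myo6 at −0.73 and 1.51, and Acadm at −0.47 and 0.74. For these 6 genes the sign without doxycycline was the opposite. Foxa2 lay on the other side of its control. Its scaled values were 62.2, 62.6 and 62.9 in shLinc and 56.9, 52.6 and 56.6 in shCtrl lines with doxycycline (0.17, limma adjusted p = 0.000472). The Foxa2 difference without doxycycline and the Falcor values of these lines are not given here. Whether Foxa2 responded to the inducible hairpin was therefore not tested. In NCD livers, where Falcor was removed, Foxa2 was at −0.2 (limma adjusted p = 0.573) and Alb at 0.51 (adjusted p = 0.0887) in knockout over control, neither past the threshold, although Alb was called higher without rescaling (0.70, adjusted p = 0.023).

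**Figure D5:**
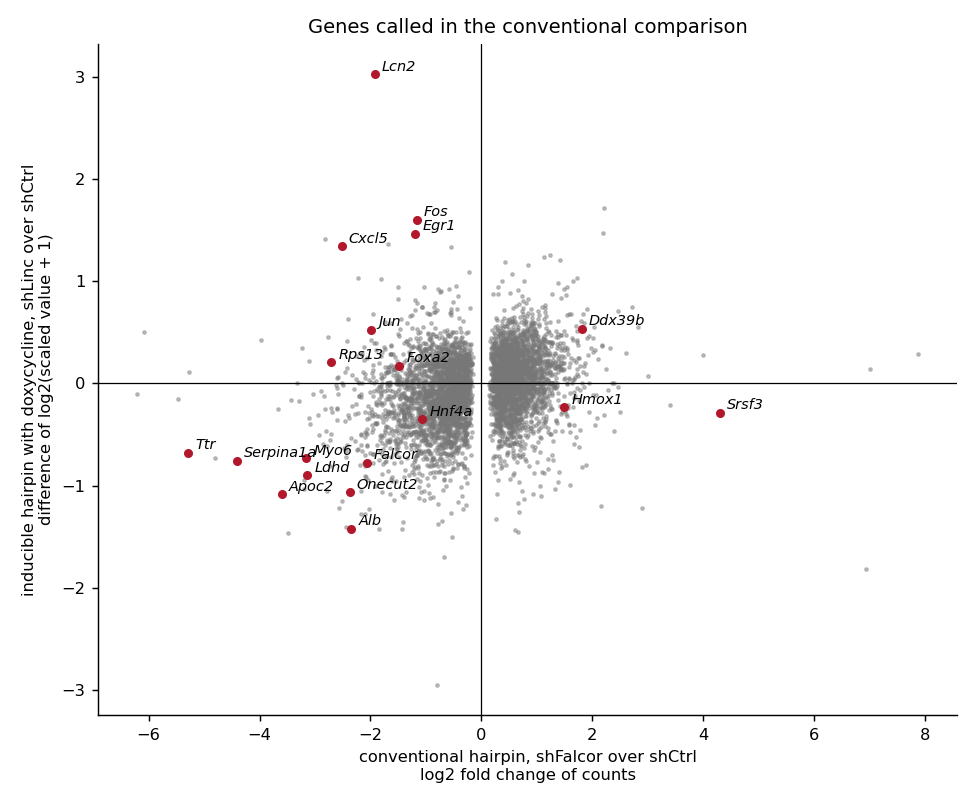
For the genes called in the conventional comparison, the log2 fold change of shFalcor over shCtrl (x axis) against the difference in log2(scaled value + 1) of shLinc over shCtrl with doxycycline (y axis), 1 point per gene. Alb, Ttr, Onecut2 and Apoc2 were below 0 on both axes, while Lcn2, Fos, Egr1 and Cxcl5 were below 0 on the x axis and above 0 on the y axis.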

How the data were processed

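Ribosomal RNA-depleted, strand-specific libraries were made, per the labels' protocols. The deposited table of the conventional hairpins holds whole-number counts per gene for 9 libraries. Kallisto, DESeq2 and mm10 stand in the submitters' processing notes, without versions. How counts were made from reads, and with which annotation, is not given in the sources used here, so strand and shared reads between gene copies could change single genes. Of the deposited values, 40 genes with at least 50 counts had the same counts as another gene. The deposited tables of inducible lines and NCD livers hold whole numbers with near-equal library totals, treated as a normalised score, since no source names their unit, and their depth is unknown.

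Counts of all 9 libraries were fitted together in edgeR 4.0.16 (R 4.3.3; filterByExpr, TMM factors, robust quasi-likelihood), with Benjamini-Hochberg adjustment over 11871 genes and a threshold of 0.05. Scores were fitted with limma 3.58.1 as log2(value + 1) for genes with a mean of at least 3, after TMM scaling, in 18 inducible and 8 liver libraries. Alternatives used other factors and filters, DESeq2 1.42.0, limma-voom, a replicate block, the 6 libraries alone, and each library left out. Both fits were tested on simulated data. Correlations of deviations between equal replicate numbers were −0.06, 0.07 and −0.04, so numbers were not taken as pairs. Intervals are exact (95%) and cover counting error only. Apart from list members and neighbours of Falcor, named genes had a mean of at least 5 CPM in the higher group, no overlap between groups, and were among the 25 largest changes in a direction, the 15 smallest p-values or, for shFalcor over shZC3H11A, the 10 largest. The comparison, gene lists and named genes were chosen with earlier results of these data known. Some genes that meet these rules are not reported here. Promoter windows are from RefSeq (GRCm38.p6), matched by symbol.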

Additional observations from a re-analysis of the deposited data

Results flagged for a closer look

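Named genes were flagged where every shFalcor library lay on one side of every shCtrl library and every inducible shLinc library with doxycycline lay on the other side of its shCtrl libraries. Over all genes, 4083 had no overlap between groups in both experiments, and 1447 of these lay on opposite sides and 2636 on the same side. Of 121 such named genes, 46 lay on opposite sides and 75 on the same side, a split close to that of all genes. The rule asks for no overlap and not for a size or a p-value. Inducible differences as small as 0.03 (Rplp0) and −0.05 (Pgam1) are therefore listed. The experiments use different units and share no library, so the difference was not tested.

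The following named genes were lower in shFalcor over shCtrl with the conventional hairpins and higher in shLinc over shCtrl of the inducible lines with doxycycline, given in that order as log2 values: Aqp1 (−5.28 and 0.11), Adamts1 (−2.77 and 0.46), Rps13 (−2.71 and 0.21), Cxcl5 (−2.52 and 1.35), Jun (−1.98 and 0.53), Lcn2 (−1.92 and 3.03), Dusp6 (−1.73 and 0.34), Cd14 (−1.69 and 0.17), Tgfb2 (−1.6 and 0.29) and Srsf9 (−1.52 and 0.22). Smaller conventional falls with a higher inducible shLinc value were seen for Foxa2 (−1.48 and 0.17), Rplp0 (−1.36 and 0.03), Egr1 (−1.2 and 1.47), Gdf15 (−1.19 and 0.82), Fos (−1.17 and 1.6), C3 (−1.15 and 0.49), Socs3 (−1.12 and 0.23), Nfkbia (−1.06 and 0.17), Gstm1 (−1.0 and 0.38), Ccn2 (−0.95 and 0.18) and Abcc3 (−0.93 and 0.2). The remaining genes of this direction were Srsf6 (−0.93 and 0.15), Ccn1 (−0.84 and 0.3), Vcam1 (−0.8 and 0.36), Cebpb (−0.78 and 0.17), Acaa1a (−0.74 and 0.23), Nxt1 (−0.41 and 0.28) and Cst3 (−0.27 and 0.23). In the opposite direction, higher with the conventional and lower with the inducible hairpin, were Srsf3 (4.31 and −0.29), Thoc1 (1.78 and −0.45), Gsta1 (1.76 and −0.62), Itga6 (1.66 and −0.41), Hmox1 (1.5 and −0.23), Lrp1 (1.42 and −0.22), Cyp3a13 (1.38 and −0.97), Lpl (1.22 and −0.26), Abcg2 (1.06 and −0.67) and Pgam1 (0.94 and −0.05). So were Pkp2 (0.89 and −0.3), Pgm1 (0.82 and −0.2), Lamb3 (0.72 and −0.4), Tjp1 (0.63 and −0.24), Dsp (0.31 and −0.15), Gzf1 (0.31 and −0.29), Rbp4 (0.31 and −0.43) and Cpt1a (0.16 and −0.51).

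Lcn2, Fos, Egr1 and Cxcl5, genes of inflammation and of the early growth response, had the largest differences of shLinc over shCtrl with doxycycline among these genes. These are differences between lines and not changes on adding doxycycline. Without doxycycline limma called 65.3% of all genes between the same lines. Values without doxycycline are not given here for the genes flagged, so whether they responded to the inducible hairpin was not tested.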

How the results depend on the processing

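The count of 6111 genes was 5567 to 6325 under 10 other settings (RLE 6125, library totals 6311, upper quartile 6193, no filter 6139, 10 counts in 6 libraries 5930, no robust step 6118, the 6 libraries alone 6239, DESeq2 5567, limma-voom 6325) and 5434 to 5804 with 1 library left out. A replicate block gave 6052 calls, although the replicate numbers did not pair the samples. Against shZC3H11A, the 6760 calls were 6260 to 6827 and, with 1 library left out, 6250 to 6472. Asking for at least a 2-fold difference, a rule added after seeing the data, left 1803 genes, 722 higher and 1081 lower. Among 186 named genes no sign turned where the gene was called in the main fit or in the alternative. Turns of sign in genes called in neither were not counted. Zc3h11a missed the threshold with the replicate block (−0.74, adjusted p = 0.0567). Nr4a1 missed it with DESeq2 (adjusted p = 0.0776) and without the low-count filter (0.0716), and Cpt1a without the filter (0.0548). With library totals alone Krt18 (adjusted p = 0.00236), Mdm2 (0.02) and Rxra (0.0271) were called higher, and medians of 10 lists turned positive (cholesterol, lipogenesis, p53, YAP, mesenchymal, circadian, speckle, RNA interference, long noncoding and mitochondrially encoded RNAs). That of the p53 list, −0.0043 with TMM factors, did so with every other scaling. The cause was not tested. Of 1728 list counts under alternatives 1660 were within 1.5 times. Mitosis genes called lower numbered 3 with the replicate block or without the low-count filter, and tRNA synthetase genes called higher 14 with library totals alone. That scaling also gave 1 glycolysis, 4 apoptosis and 4 respiratory chain genes lower and 8 speckle, 4 immediate early and 1 mitosis gene higher, while DESeq2 or no low-count filter gave 1 immediate early gene higher. The share of genes with the same direction in the inducible lines was 61.08 to 62.05% with doxycycline. Falcor itself, with 4 to 38 counts in a library, and other genes below about 1 CPM are limited by depth.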

Other observations

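Matrix and growth factor genes gave single large changes within lists that were mixed. Of 22 extracellular matrix and protease genes tested, 10 were called higher and 4 lower, against 25.5% higher and 26.0% lower of all genes. The collagenase gene Mmp13 was at 4.72, 5.02 and 4.94 CPM in shFalcor, against 0.116, 0.539 and 0 CPM in shCtrl (log2 fold change 4.49 ± 0.67 SE, edgeR adjusted p = 2.09e-05, and 5.83 without shCtrl replicate 2). The aggrecanase gene Adamts1 was at 5.7, 9.2 and 7.36 CPM in shFalcor, against 50.4, 57.3 and 42.8 CPM in shCtrl (log2 fold change −2.77 ± 0.17 SE, edgeR adjusted p = 3.1e-10), the opposite direction. Sparc, which binds collagen, fell (−0.86), and fibronectin mRNA (Fn1) rose (0.43). Of 12 genes of the insulin-like growth factor axis and liver hormones, 4 were called higher and 5 lower. Beside Igfbp4, the binding protein gene Igfbp7 fell (−1.45), as did Selenop, for the selenium carrier of plasma (−1.31). Targets and factors of YAP were called higher in 6 of 20 cases and lower in 9, with the classical targets Ccn1 (−0.84) and Ccn2 (−0.95) lower and Ajuba (1.19) higher.

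Lipoprotein receptor and uptake genes were called higher in 5 of 10 cases and lower in 3. The lipase gene Lpl rose (1.22), and so did Mttp (0.8), which loads lipid onto apolipoprotein B. Of the glycogen enzymes Pgm1 rose (0.82), while Ugp2, which makes the glucose donor for glycogen, was at 60.1, 64.8 and 53.3 CPM in shFalcor, against 183, 181 and 156 CPM in shCtrl (log2 fold change −1.56 ± 0.09 SE, edgeR adjusted p = 1.02e-10). Of 11 cytochrome P450 genes, 5 were called lower and 1 higher (2 higher without shCtrl replicate 3, with upper quartile factors, library totals alone or limma-voom, or in the 6 libraries alone), among them Cyp2s1 (−1.34) lower and Cyp3a13 (1.38) higher. Circadian genes were called higher in 2 of 15 cases and lower in 4, with Per2 at 20.8, 22.4 and 25.2 CPM in shFalcor, against 52.7, 45.5 and 49.5 CPM in shCtrl (log2 fold change −1.1 ± 0.12 SE, edgeR adjusted p = 4.62e-07). Heat shock genes were called higher in 4 of 9 cases and lower in 1, and higher in 2 without shFalcor replicate 3 or shCtrl replicate 3. Hypoxia-induced genes were lower in 7 and higher in 3 of 15, apoptosis regulators lower in 7 and higher in 2 of 17, Wnt pathway genes lower in 4 and higher in 5 of 15, and mesenchymal genes 4 each of 11. Of 12 genes of the RNA interference machinery, through which hairpins act, 4 were called lower and 1 higher, and 2 higher without shFalcor replicate 2 or shCtrl replicate 3, with upper quartile factors, without the low-count filter or with a replicate block, and 3 with library totals alone.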
